A study of Saccharomyces cerevisiae with 3 samples.

Results

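Budding yeast that finds no better nitrogen source can live on allantoin, a purine breakdown product, and on urea. The genes described here are the 9 of 6218 yeast genes on the array that carry out or curb this pathway: *DAL1*, *DAL2*, *DAL3*, *DAL4*, *DAL5*, *DAL7*, *DAL80*, *DUR3* and *DUR12* (also written *DUR1*,*2*). They were chosen by gene symbol and not by any measured value, and all 9 symbols matched a gene on the array.

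The arrays carried 2 spots of a PCR product for each gene and were hybridized with cDNA in 2 colors. The Cy5 sample was RNA of diploid Δ*sum1* cells (strain JPY214, SK1 background), which lack the repressor Sum1, and it was taken at 3 times: after 6 hours in sporulation medium (SPM, 0.3% potassium acetate with 0.02% raffinose), and 20 and 40 minutes after cells of that culture were moved to the rich medium YPD (2% yeast extract, 4% peptone, 4% glucose). The Cy3 reference was the same on all 3 arrays, RNA of wild-type diploid SK1 cells (NKY1551) growing in the acetate medium YPA (1% yeast extract, 2% peptone, 1% potassium acetate). Each time point has 1 array, so no difference could be tested. The SD given with a value is that of the 2 spots of a gene and is technical. The log2 ratio to the reference holds both a strain and a medium difference, whereas a change between arrays compares Δ*sum1* cells with themselves. No *SUM1*+ culture treated in the same way was used here.

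Allantoin enters the cell through Dal4, and its product allantoate through Dal5. Dal1 (allantoinase) opens the allantoin ring to allantoate, Dal2 (allantoicase) splits allantoate into ureidoglycolate and urea, and Dal3 releases a further urea together with glyoxylate. Urea, which can also be taken up by Dur3, is broken down by the urea amidolyase Dur1,2 to ammonia and carbon dioxide by way of allophanate, the compound that induces the pathway, and Dal7 is a malate synthase that uses glyoxylate. Good nitrogen sources keep most of these genes low, a control called nitrogen catabolite repression, in which the GATA factors Gln3 and Gat1 activate and Dal80 and Gzf3 repress.

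The deleted gene and the sporulation program were checked first. *SUM1* gave log2 ratios of -1.76, -1.37 and -1.64 in SPM and on the earlier and later YPD arrays. All 12 sporulation markers exceeded the reference by 1.5-fold or more in SPM and again after 40 minutes in YPD, with medians of 5.80 and 5.69. Of 14 haploid and mating genes, which a diploid should keep low, 10 were higher at 6 hours (median 0.95), where 31.2% of all genes were. Their median change upon transfer was -0.11 and then 0.30, with genes going both ways. At 20 minutes 4 were lower and 3 higher (39.2% and 26.4% of all genes), and at 40 minutes 4 were lower and 7 higher (42.5% and 27.1%). Their part in the results was not tested. The median signal of the array fell from 4280 to 2748 and 1616 in Cy5 and from 3939 to 3399 and 2811 in Cy3, so each ratio is relative to the median of its array. Signals below a floor (656, 397 and 268 in Cy5 and 690, 574 and 455 in Cy3) were set to it. The 6161 genes with a value had median changes of -0.26 (20 minutes) and -0.33 (40 minutes), against which the changes of the 9 genes are to be read.

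In SPM the 9 genes did not stand on one side of the reference. At 6 hours 3 of them exceeded it by 1.5-fold or more (31.2% of all genes did), namely the permease genes *DAL4* and *DAL5* and the allantoinase gene *DAL1*, and 2 fell short of it by that much (28.9% of all genes), namely *DAL7* and *DUR12*. *DAL2*, *DUR3* and *DAL80* lay within 1.3-fold of the reference. Their median log2 ratio was 0.08 against 0.00 for all genes.

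Upon transfer to YPD the genes of the allantoin and allantoate permeases, of allantoicase and of malate synthase went down and *DUR12* went up. At 20 minutes 4 of 9 genes, *DAL2*, *DAL7*, *DAL4* and *DAL5*, had dropped at least 1.5-fold, or 44.4% where 39.2% of all genes did so, and 2, *DUR12* and *DAL1*, had risen, where 26.4% of all genes did. At 40 minutes *DAL3* and *DAL80* had joined the lower genes, just past the limit, so that 6 of 9 were lower, or 66.7% against 42.5% of all genes, and *DUR12* alone was higher, against 27.1% of all genes. Their median change reached -0.54 and then -0.64. By then 4 of the 9 were below the reference, where 36.3% of all genes were, and 2, *DAL1* and *DUR12*, above it, where 35.1% were. Both calls above it were lost when the mean of the buffer spots was the floor (0.00 and 0.43), and that of *DUR12* also with loess (0.46). The count at 20 minutes lies close to the share among all genes, so the changes are described gene by gene. In RNA from a whole culture, fewer cells that express a gene and less RNA in each cell cannot be told apart.

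**Figure D1:**
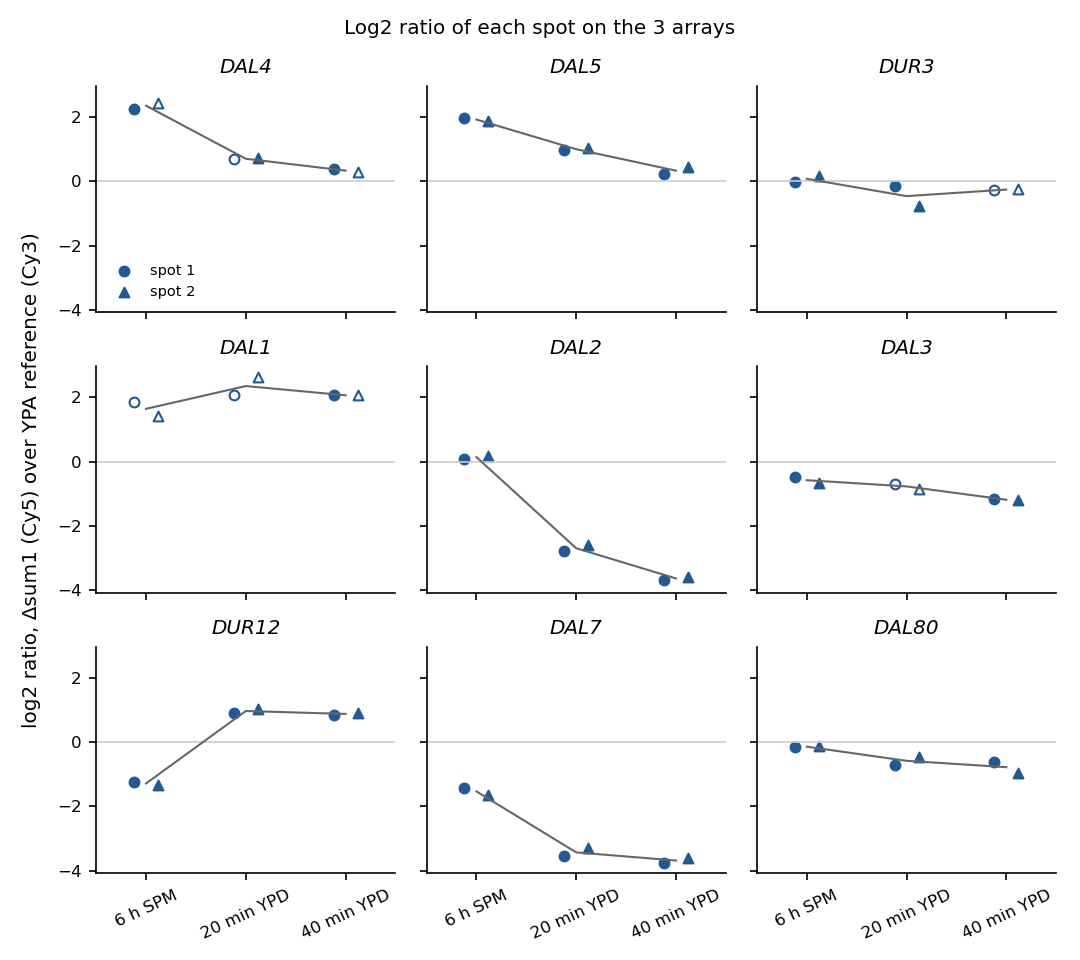
Log2 ratio of Δ*sum1* cells (Cy5) over the YPA reference (Cy3) for each of the 9 genes on the 3 arrays. Circles and triangles are the 2 spots, open where a channel of the spot was under the floor, and the line joins their means. *DAL2* drops from 0.14 to -3.63 and *DUR12* rises from -1.28 to 0.88.

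*DAL4*, the allantoin permease gene, was the member farthest above the reference in SPM. Its spots gave log2 ratios of 2.26 and 2.44 in SPM, 0.68 and 0.72 at 20 minutes, and 0.37 and 0.29 at 40 minutes. Both spots were highest in SPM, still above the 1.5-fold limit at 20 minutes and below it at 40 minutes. The change was -1.65 ± 0.10 at 20 minutes, a 3.14-fold drop, and -2.02 ± 0.18 at 40 minutes, a 4.05-fold drop. The mean Cy5 signal went from 3486 to 741 and 341, whereas in Cy3 1 of the 2 spots was under the floor on every array. The height above the reference depends on the floor: with the mean of the buffer spots as floor the log2 ratio in SPM was 0.94 in place of 2.35. The drop was also seen in the Cy5 channel by itself, at -1.60 and -1.95. With the mean of the buffer spots as floor it was smaller, at -0.92 and -0.94.

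*DAL5*, which encodes the allantoate permease, was measured well above the floor in both channels on every array. Its spots stood at 1.98 and 1.86 in SPM, at 0.97 and 1.03 after 20 minutes, and at 0.22 and 0.44 after 40 minutes. The values stepped down at each time, with no overlap between arrays. The change was -0.92 ± 0.12 at 20 minutes and -1.59 ± 0.23 at 40 minutes. *DAL5* and *DAL2* were also the 2 members, of 9, that were at least 1.5-fold lower at 40 than at 20 minutes, a drop that 12.3% of all genes showed. No member was higher by that much, where 7.95% of all genes were. For *DAL5* this step was -0.67 ± 0.11, and it was -0.29 in the Cy5 channel by itself. Of all pairs among the 9 genes, *DAL4* and *DAL5* had the most alike ratios over the 3 arrays, at a Euclidean distance of 0.52 in log2 units.

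*DUR3*, the urea permease gene, was faint throughout. Its mean Cy5 signal was 836 in SPM, 495 at 20 minutes and 180 at 40 minutes, where both spots were under the floor. The log2 ratios were 0.08 ± 0.14, -0.46 ± 0.44 and -0.26 ± 0.03. At 20 minutes the spots disagreed, at -0.15 and -0.77, and the change of -0.54 ± 0.57 was smaller than their spread. At 40 minutes the change of -0.33 is a bound, since the Cy5 signal could only be placed below the floor. Neither value passed the 1.5-fold limit that *DAL4* and *DAL5* passed.

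**Figure D2:**
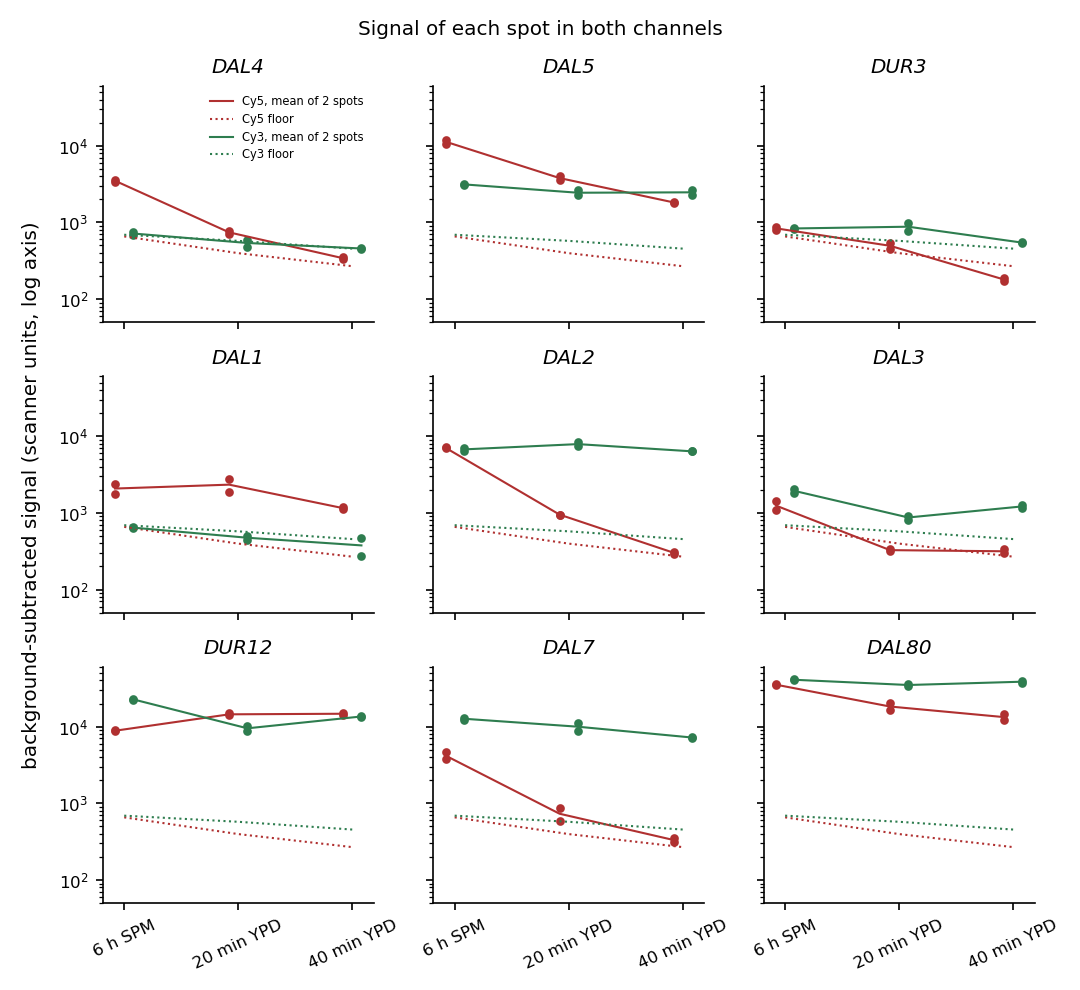
Background-subtracted signal in scanner units (log axis) of both spots of each gene, Cy5 (Δ*sum1*) in red and Cy3 (YPA reference) in green, with lines through their means and dotted lines at the floor of each channel. For *DAL2* and *DAL7* the Cy5 signal drops toward the floor while Cy3 stays far above it, for *DAL1* and *DAL4* the Cy3 signal lies at the floor, and for *DUR12* Cy5 rises from 8834 to 14712.

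*DAL1*, whose product takes the first step from allantoin, gave Cy5 signals of 2376 and 1772 in SPM, 1869 and 2794 at 20 minutes, and 1177 and 1124 at 40 minutes. In the reference both spots were under the Cy3 floor at 6 hours and at 20 minutes, and 1 of 2 was at 40 minutes. With these floors *DAL1* was 3.13-fold above the reference in SPM and 5.11- and 4.19-fold above it in YPD. With the mean of the buffer spots as floor the log2 ratios were 0.17, 0.83 and 0.00, so that the calls in SPM and at 40 minutes were lost. The change of 0.71 ± 0.71 at 20 minutes rests on floored reference signals, and its spots gave 0.21 and 1.21. The change at 40 minutes was 0.42 ± 0.30. In the Cy5 channel by itself, relative to the array, the change was 0.79 and 0.57. At 40 minutes it was -0.23 with normexp background correction and -0.17 with the buffer floor, so the direction of the later change is not settled.

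*DAL2*, the allantoicase gene, had the most negative change of the 9 genes. Its spots gave 0.10 and 0.19 in SPM, -2.78 and -2.61 at 20 minutes, and -3.67 and -3.59 at 40 minutes. Expression was near that of the reference in SPM and far below it on both YPD arrays. The change was -2.84 ± 0.05 at 20 minutes (7.14-fold) and -3.78 ± 0.01 at 40 minutes (13.7-fold). Of all genes with a value, 142 changed more negatively at 20 minutes and 56 at 40 minutes. The reference signal of *DAL2* was 6717, 7873 and 6340 on the 3 arrays, whereas the Cy5 signal went from 7053 to 948 and then to 302, just above the floor of 268. With the mean of the buffer spots as floor the change of *DAL2* was -2.95 and -2.41.

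Signals this low carry little information on size. On the 40-minute array the median buffer spot, which carries no DNA, gave 438 in Cy5. The mean Cy5 signal of *DAL2*, *DAL3*, *DAL4*, *DAL7* and *DUR3* was below that value, which 5 of 9 genes shared with 13.1% of all genes on the array. At 20 minutes *DAL3* alone was below the median buffer spot (460), and in SPM none of the 9 was (749). *DAL2*, *DAL4* and *DAL7* were above that median at 20 minutes but below the mean of the buffer spots (1304), and at 40 minutes they were below both.

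*DAL3*, whose product acts on ureidoglycolate, lay just short of 1.5-fold below the reference in SPM. Its log2 ratio there was -0.58 ± 0.14, and in YPD it was -0.77 ± 0.12 after 20 minutes and -1.18 ± 0.02 after 40 minutes. At 20 minutes both Cy5 spots, 339 and 314, were under the floor, so that the change of -0.19 is a bound. It was -0.99 in the Cy5 channel by itself and -0.64 with normexp background correction, both past 1.5-fold. In 8 of 10 alternatives it stayed under that limit, among them the omission of bright spots, which removed no spot of *DAL3*. The change of -0.61 ± 0.12 at 40 minutes passed the 1.5-fold limit by little. It kept that call in 2 of 11 alternative treatments of the data. These were the first spot alone (-0.69) and the omission of bright spots, which could not change it. The reference signal of *DAL3* moved 1.92-fold between arrays, relative to the array median, more than that of 92.6% of genes.

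*DUR12*, the urea amidolyase gene, was the only member that rose past 1.5-fold at both YPD times. Its spots gave -1.24 and -1.33 in SPM, 0.91 and 1.03 at 20 minutes, and 0.86 and 0.90 at 40 minutes. Both YPD arrays lay above the reference and the SPM array below it, with no overlap. The change was 2.25 ± 0.15 at 20 minutes, or 4.77-fold, and 2.16 ± 0.09 at 40 minutes, or 4.48-fold. A more positive change was found for 581 and 607 genes. Part of this change came from the reference channel, in which the *DUR12* signal was 22634, 9500 and 13555, a 2.06-fold range after scaling that exceeded the range of 94.0% of genes although the same RNA was used. In the Cy5 channel by itself the change was 1.35 at 20 minutes and 2.14 at 40 minutes. *DUR12*, whose product consumes urea, thus rose in YPD while *DAL2*, whose product releases it, dropped.

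*DAL7* encodes a malate synthase of the pathway. It was below the reference in SPM, at -1.42 and -1.65, and fell further to -3.55 and -3.31 at 20 minutes and to -3.75 and -3.61 at 40 minutes. The reference signal was strong on every array (12668, 9971 and 7209), and the Cy5 signal went from 4191 to 731 and 332. The change was -1.90 ± 0.33 at 20 minutes and -2.15 ± 0.26 at 40 minutes. Its paralog *MLS1*, the malate synthase gene of the glyoxylate cycle, changed by -3.88 ± 1.31 and -3.14 ± 0.13. PCR products of paralogs can capture each other's cDNA. Whether *DAL7* and *MLS1* share signal was not tested.

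*DAL80* is the gene of the GATA repressor. Its spots gave log2 ratios of -0.15 and -0.13 in SPM, -0.70 and -0.46 at 20 minutes, and -0.61 and -0.95 at 40 minutes. The YPD spots were all lower than the SPM spots, and those of the YPD arrays overlapped each other. The change was -0.44 ± 0.16 and then -0.64 ± 0.26, close to the medians of all genes. In the Cy5 channel by itself, relative to the array, it was -0.31 and -0.01, so on that scale the later change lay in Cy3. In scanner units the mean Cy5 signal went from 35201 to 18272 and 13300, and that of Cy3 from 40808 to 34868 and 38505. With loess normalization the change of the ratio was -1.06 and -1.46 and with the buffer floor -1.01 and -1.31, so its size depends on the processing.

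**Figure D3:**
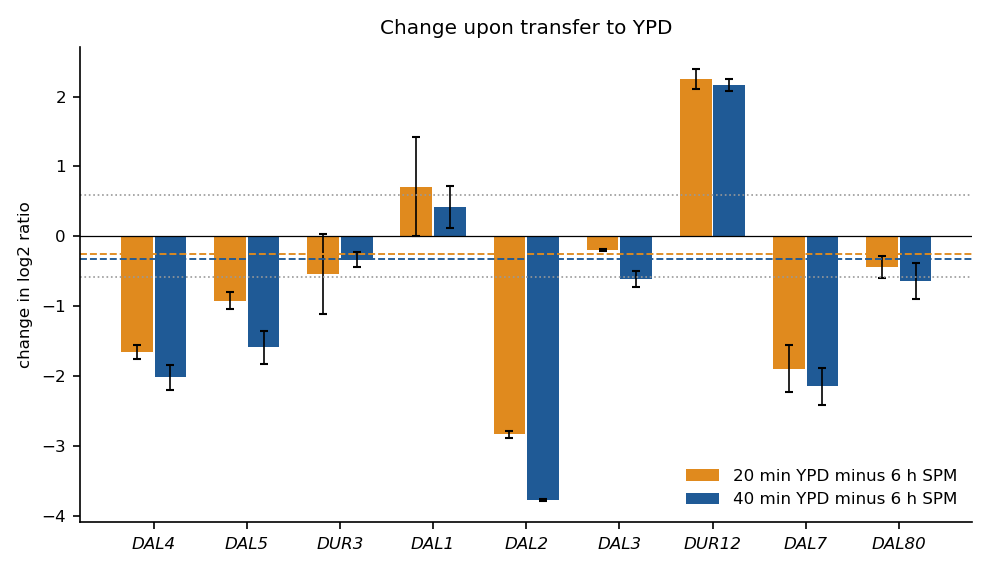
Change in log2 ratio of the 9 genes from 6 hours in SPM to 20 minutes (orange) and 40 minutes (blue) in YPD. Bars are means of 2 spots with their SD, dotted lines mark 1.5-fold and dashed lines the medians of all genes (-0.26 and -0.33). *DAL2*, *DAL7*, *DAL4* and *DAL5* drop at both times and *DUR12* rises by 2.25 and 2.16.

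Of the 9 genes, 5 lie side by side on chromosome IX, in the order *DAL1*, *DAL4*, *DAL2*, *DAL7*, *DAL3*, with *DCG1*, a further gene of the cluster, between *DAL2* and *DAL7*. After 20 minutes 3 of these 5 had dropped and 1 had risen, and after 40 minutes 4 had dropped and none had risen, beside 39.2% and 26.4% of all genes at the earlier time and 42.5% and 27.1% at the later. The fourth drop is that of *DAL3*, whose call held in 2 of 11 alternatives, including the omission of bright spots, which could not change it. The median of the 5 was -1.65 and then -2.02. The Cy5 signal of *DCG1* was under the floor in every spot on all 3 arrays, so no change can be given for it. The measured changes differed along the cluster: *DAL2* in its middle changed by -3.78 at 40 minutes, *DAL3* at one end by -0.61 and *DAL1* at the other end by 0.42. The Cy5 signal of *DAL3*, 1243 in SPM and 315 at 40 minutes, was too near the floor to show a large drop. The change of *DAL1* rests on floored reference signals, and its direction is not settled. These end genes therefore do not show whether the drop was even.

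The genes that flank the cluster went in both directions. On the *DAL1* side, the phosphatase gene *YVH1* rose by 3.54 ± 0.25 at 20 minutes and 3.44 ± 0.11 at 40 minutes, *MND2*, which encodes a subunit of the anaphase-promoting complex, changed by -2.69 and -2.61, and *INA22* by -1.61 and -1.45. On the *DAL3* side, *MGA2*, which encodes an activator of fatty acid desaturation, changed by -1.27 and -1.80, and *LYS1*, the last gene of lysine synthesis, by 0.36 and 0.80. Neighbors outside the pathway thus changed as far as the allantoin genes did.

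**Figure D4:**
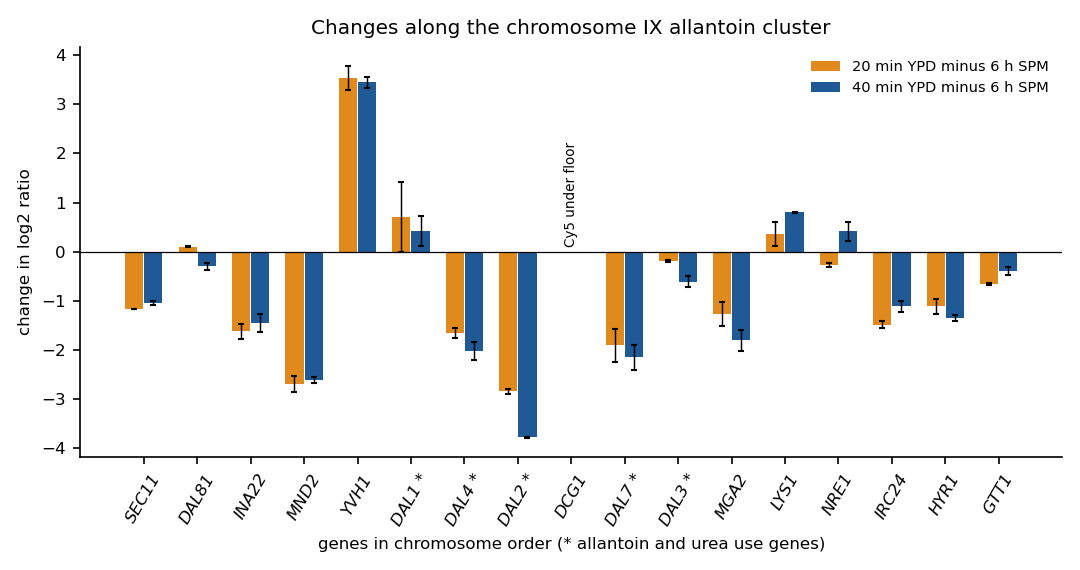
Change in log2 ratio from 6 hours in SPM to 20 minutes (orange) and 40 minutes (blue) in YPD along chromosome IX, genes in map order and not to scale. Bars are means of 2 spots with their SD, and *DCG1* has no bar because its Cy5 signal was under the floor. The highest bars are those of *YVH1* (3.54 and 3.44), next to *DAL1*, and the lowest that of *DAL2* at 40 minutes (-3.78).

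Among 6 other regulators of the pathway, 2 had dropped and 2 had risen after 20 minutes, and 3 had dropped and 2 had risen after 40 minutes. Of all genes 39.2% and 42.5% had dropped and 26.4% and 27.1% had risen at these times. The activator gene *GAT1* changed by -0.81 ± 0.05 and then -1.35 ± 0.11, and *DAL82*, whose product responds to the inducer, by -1.26 ± 0.06 and -1.02 ± 0.46. *GZF3*, which encodes the other GATA repressor, rose by 1.88 ± 0.16 and 1.19 ± 0.02, in contrast to *DAL80*. *GLN3* rose by 0.59 ± 0.05 and 0.93 ± 0.42. *DAL81*, which acts with *DAL82* and lies beside the cluster, changed by 0.11 and -0.29. For *URE2*, whose product restrains Gln3, the change was -0.25 ± 0.10 and then -1.32 ± 1.41, where the 2 spots disagreed.

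Other genes for poor nitrogen sources were set beside the allantoin genes. In 3 lists with 24 genes in all (arginine to urea, proline and GABA catabolism, and permeases and proteases under nitrogen catabolite repression), 14 were lower at each time, 7 were higher at 20 minutes and 5 at 40 minutes. The median change was -0.78 and then -1.13, beside -0.54 and -0.64 for the 9 allantoin and urea genes. The latter medians were -0.89 and -1.44 with loess and -0.97 and -1.57 without floored spots, so no order of the lists is drawn. Shares of 58.3% lower at both times stand beside 39.2% and 42.5% of all genes, and shares of 29.2% and 20.8% higher beside 26.4% and 27.1%. The same shares of all genes stand beside the counts of the lists below.

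Arginine is the other internal source of urea. The list of 6 genes holds regulators beside enzymes and a permease. Of these 6 genes, 3 were lower and 2 higher at both times, with a median of -0.92 and -1.43. *CAR1*, the arginase gene, was 1.61 above the reference in log2 units in SPM and changed by -3.03 ± 0.18 and -3.88 ± 0.09, as far as *DAL2* did. *CAN1*, the arginine permease gene, rose by 1.05 and 1.04. The arginase gene thus moved in the same direction as *DAL2* and opposite to *DUR12*.

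Of 8 proline and GABA genes, regulators among them, 5 were lower and 3 higher at both times (medians -0.90 and -1.05). *PUT1*, the proline oxidase gene, changed by -3.75 and -4.20, and *UGA2*, which encodes succinate semialdehyde dehydrogenase, rose by 1.69 and 1.58. Of 10 repressed permease and protease genes, 6 were lower at each time, while 2 were higher at 20 minutes and none at 40 minutes (medians -0.69 and -1.16). *PRB1*, the vacuolar protease B gene, changed by -2.37 and -2.53, and *MEP3*, an ammonium permease gene, by 1.27 and -0.21. In the 5 genes that assimilate ammonia the medians were 0.03 and -0.20, with *GDH2* at -1.47 and -1.84 and the glutamine synthetase gene *GLN1* at 0.44 and 0.72.

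In the list that holds *MLS1* and *ICL1*, all genes but *ICL1* went down as *DAL7* did. Of 4 genes 3 were lower at both times, with *ICL2*, the gene of a mitochondrial lyase related to *ICL1*, at -5.41 and -5.23, which are bounds for the spots under the Cy5 floor (1 of 2 at 20 minutes and both at 40 minutes), and *ICL1*, the isocitrate lyase gene, at 0.36 and 0.44. Among 20 relatives of *DAL4*, *DAL5* and *DUR12* (nucleobase and thiamine permeases, anion permeases and biotin enzymes), 10 were higher at each time, with 2 lower at 20 minutes and 1 at 40 minutes. Of all genes 26.4% and 27.1% were higher and 39.2% and 42.5% lower. The medians of the relatives, 0.63 and 0.53, were positive. The thiamine permease gene *THI7* rose by 3.35 and 3.75, and the putative permease gene *SEO1*, a relative of *DAL5*, changed by -0.61 and -2.25.

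**Figure D5:**
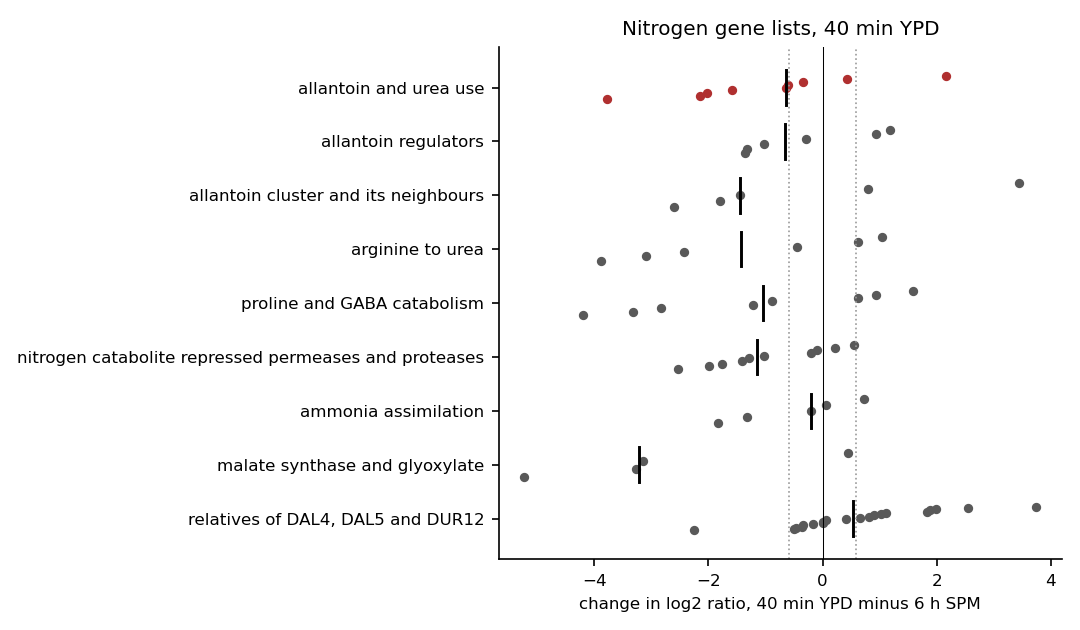
Change in log2 ratio from 6 hours in SPM to 40 minutes in YPD, 1 point per gene and 1 row per list, with *DCG1* left out. Vertical bars are list medians and dotted lines mark 1.5-fold. The 9 allantoin and urea genes (red, median -0.64) reach from -3.78 for *DAL2* to 2.16 for *DUR12*.

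The median profile of the 9 genes (0.08, -0.46 and -0.26 on the 3 arrays) equals that of *DUR3*, which held the middle rank on each array and was close to the floor. The 5 other genes nearest to it over the 3 arrays, at Euclidean distances of 0.11 to 0.15 in log2 units, were *YKL118W*, *YGL108C*, *COG4*, *PSH1* and *SED5*. All 5 lay within 1.3-fold of the reference in SPM, which follows from their choice by nearness to this profile.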

How the data were processed

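The authors' deposited scanner files give an intensity and a local background for each spot and channel, quantified with QuantArray and not background subtracted, and a signal-to-noise score. The authors also deposited log2 ratios of these 3 arrays, in which 8 of the 9 genes have a named row. Scale, centring and direction of that table were settled by comparison with the scanner values. The labeling protocol names the dyes the other way round from the channel labels and the scanner headers, which were followed.

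From the intensities, background was taken off, each signal below the floor was replaced by the floor, and the log2 ratio of Cy5 to Cy3 was formed. The median of the gene spots was then removed and the 2 spots of a gene were averaged. The study's methods give the floor as the mean of the buffer spots. The deposited values could be matched only with lower floors, recovered from them, after which 97.9%, 98.4% and 98.0% of genes were equal within 0.001 after removal of a constant offset. The buffer mean is an alternative.

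No test was run, as every time point rests on 1 array. A gene was counted as lower or higher from 1.5-fold on, and as near the reference within 1.3-fold. Of 6218 genes, 57 were under both floors in every spot and carry no value. In 13 alternatives the background correction, normalization, floor, channel, spots or fold limit was changed 1 at a time. limma 3.58.1 in R 4.3.3 was used for normexp (offset 50) and loess, and Python 3.11.15 with numpy 2.4.6 and pandas 2.3.3 for the rest. The calculation of the ratios was tried on simulated data. No outcome of that trial is given, so it is no evidence for the measured ratios, least of all for signals near the floor. The number of arrays limits the precision.

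Names and gene order came from the R64 annotation. Coordinates are left out, since no build is named for the arrays. The text names the 9 genes, the genes of the cluster and regulator lists, *MLS1*, *SUM1*, of each further nitrogen, glyoxylate or relatives list the genes with the most negative and the most positive mean change, and the 5 genes nearest the median profile. The genes and lists were chosen with earlier results of these data known.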

Additional observations from a re-analysis of the deposited data

How the results depend on the processing

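The 9 genes were recomputed under 11 alternatives that bear on values and 2 that change the fold limit. The omission of bright spots (60000 or more) removed no spot of the 9 genes, so it could only return their main values. Of 531 single values, 419 moved by no more than the pooled SD of spots, and all values of that setting are among them. In all, 31 had another sign than the main value or were 0, and for 26 of these the main value was under 1.5-fold. Of 15 changes past 1.5-fold, 10 kept their call in every alternative that gave a value: those of *DAL2*, *DAL4*, *DAL5*, *DAL7* and *DUR12* from SPM to both YPD times. Leaving out spots of low signal-to-noise gave no value for *DAL4* at either time, nor for *DAL2* and *DAL7* at 40 minutes. Those calls were therefore not checked against that filter. The other 5 did not: *DAL1* at 20 minutes (0.22 from the first spot), *DAL3* and *DAL80* at 40 minutes, and *DAL2* and *DAL5* from 20 to 40 minutes.

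With the mean of the buffer spots as floor, which lies above most low signals, the ratio of *DAL1* at 40 minutes was 0.00, that of *DAL3* was 0.0204 and 0.00 at 20 and 40 minutes, the change of *DAL3* at 40 minutes was 0.14 and that of *DAL2* from 20 to 40 minutes was 0.53. All-gene medians shifted by -0.25 and -0.17 at 20 and 40 minutes under that floor and by 0.11 and 0.27 with Cy5 alone. The median change of the 9 genes at 20 minutes was -0.89 with loess, -0.92 with the buffer floor, -0.97 without floored spots (7 genes), -0.94 with Cy5 alone, -0.77 in the deposited table (8 genes) and -0.85 with the second spot. At 40 minutes it was -1.44 with loess, -0.92 with the buffer floor, -1.57 without floored spots and -1.09 in the deposited table, and from 20 to 40 minutes -0.0204 with the buffer floor. The cause of these shifts was not tested.

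Counts moved as follows. In SPM 1 gene was lower in the deposited table. At 20 minutes 1 gene was higher without floored spots, without spots of low signal-to-noise, in the deposited table, with the first spot and at 2-fold. At 40 minutes 2 of 4 genes with a value were lower without spots of low signal-to-noise, 0 were higher in the deposited table, which has no named row for *DUR12*, and 2 were higher with the second spot and at 1.3-fold. From 20 to 40 minutes 1 gene was lower with loess, Cy5 alone, the second spot and without spots of low signal-to-noise, 0 at 2-fold, and 1 was higher with the buffer floor and with Cy5 alone.

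No paired analysis was possible because each time point has 1 array. No ratio to the reference exists for Cy5 alone. Signals near the floor limit *DAL1* and *DAL4* in Cy3 and *DAL3* and *DUR3* in Cy5, and 5 of the 9 genes in Cy5 at 40 minutes.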
